A study of Homo sapiens with 115 samples.

Results

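Budding cells of the HCT116 line labelled p53-/- were compared with the unirradiated cells of the same line, cell by cell. The study followed HCT116, a human colorectal carcinoma line, through X-ray irradiation, growth into giant persister cells and the release of small daughter cells by a budding-like division. It sequenced the RNA of single cells in 5 stages, with 43 cells labelled p53-/- and 72 labelled p53+/+ among those analysed here. These numbers follow the labels, and the study's own numbers of cells per line differ from them. The 8 cells described here carry the genotype label p53minus and the stage label [B], for budding, at day 10 after 8 Gy. They were set against the 7 cells labelled p53minus and [N] at day 0, which gives 15 of the 43 cells of this line. The other 28 cells of the line and all 72 p53+/+ cells appear only as values set beside these. The labels give 8 Gy for the [N] cells as well, whereas the study calls these cells unirradiated, and they were taken as unirradiated.

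Both groups come from the p53-/- form, which is 1 clone of HCT116 made by homologous recombination, so no [N] cell is a p53-proficient control. Single cells were picked under a microscope with a pipette, and their messenger RNA was amplified as full-length cDNA. No label names the culture, plate or date of a cell, so each stage is 1 sample and the cells are not replicates. No test was therefore made between the stages. Values are described by the lowest, the median and the highest cell, in CPM, the counts of a gene scaled to the total count of its cell. The log2 difference of a gene is the median of log2(CPM + 1) over the [B] cells minus that over the [N] cells. The first part of the titles differs between all [B] and all [N] cells, so anything else that goes with these titles cannot be told apart from the stage. CPM gives the makeup of a cell's RNA and not its amount.

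Total counts were 29499737 to 59786305 in [B] cells and 15784490 to 47271774 in [N] cells. The number of genes with a count was 11265 to 17467 in [B] cells and 14092 to 16675 in [N] cells. The [N] cells resembled one another more closely, with a median correlation of 0.875 to 0.92 with the rest of their stage, whereas the [B] cells had 0.728 to 0.798 apart from [B] cell 3. That cell had the fewest genes, 11265, and a median correlation of 0.608. Mitochondrial ribosomal and transfer RNA took 0.7 to 26.21% of the counts in [B] cells and 0.7 to 3.18% in [N] cells, and the 50 highest genes of a cell took 13.5 to 38.5% in [B] cells and 15.4 to 17.9% in [N] cells. All 10 epithelial markers were present in both stages, with summed levels of 2817 to 17582 CPM in [B] cells and 4689.9 to 11689.5 CPM in [N] cells. Of 8 intestinal epithelial markers, CDX2 was the only one with a median of at least 1 CPM in either stage. Markers of other cell types were low, with summed levels of 7.68 to 102.04 CPM in [B] cells and 0 to 17.7 CPM in [N] cells for 10 fibroblast genes. Of these COL1A2, COL3A1, DCN, LUM, PDGFRA, PDGFRB and THY1 were at 0 in every cell. The other 3, COL1A1, VIM and ACTA2, had log2 differences above 0 (median 0.83) and medians of at least 1 CPM in [B] cells. Of 10 leucocyte genes CD68, which is also a lysosomal gene, was the only one above that level, and PTPRC, CD3E, MS4A1, CD14 and TYROBP were at 0 in all 15 cells.

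Of the libraries labelled p53-/- budding cells, 2 went against their line label. Genes that differ between the lines were sought in the [N] and [P] stages only, where [P] marks pre-budding cells at day 7. In these stages 8 genes had at least 1 CPM in a share of the 12 p53+/+ cells that was at least 70 percentage points above the share of the 18 p53-/- cells. Among them were NRIP1, found in 0 p53-/- and 11 p53+/+ cells, and PROM1, found in 0 p53-/- and 11 p53+/+ cells. The libraries labelled [B] cell 6 and [B] cell 7 held 7 and 8 of these 8 genes, while the other [B] cells held 0 to 2 and the 35 remaining cells labelled p53-/- held 0 to 2. All p53+/+ cells held 2 to 8. Of 3 genes found mainly in the p53-/- line, [B] cell 6 held 1 and [B] cell 7 held 0, and the other [B] cells held 0 to 3. Both libraries share the first part of their title with [B] cell 5, which held 1 of the 8 genes. Why they stood apart was not tested. Counts of list members that moved by 1.5 times or more without these cells are given both ways. Of 149 genes named below that were at least 2-fold apart, 4 (BAX, CHMP1B, CTSC and EGR1) were less than 2-fold apart without them, and 0 changed sign.

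**Figure D1:**
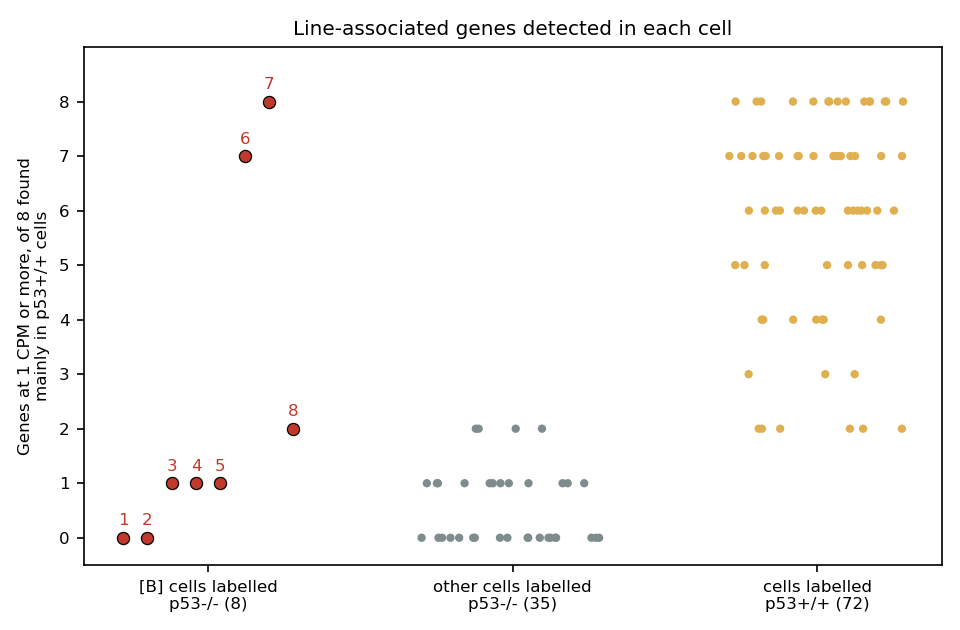
Number of the 8 genes found mainly in the p53+/+ line that had at least 1 CPM (vertical axis) in each cell, 1 point a cell spread sideways for sight, for the [B] cells labelled p53-/- (numbered), the other cells labelled p53-/- and the p53+/+ cells. [B] cells 6 and 7 of the line labelled p53-/- held 7 and 8 of them, and the other cells labelled p53-/- held 0 to 2.

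Cells that divide switch on their genes in waves, those for DNA synthesis under E2F factors and those for mitosis under a complex that binds a short promoter element with the letters TTTGAA. After irradiation this programme can stop while the cell goes on growing, which makes large cells with several genomes. Damaged or displaced nucleic acid can be read by sensors such as RIG-I, MDA5 and STING. They lead through interferon, its receptors and STAT proteins to the interferon-stimulated response element, a promoter element built of GAAA repeats, and to the antiviral genes that carry it. The protein p53 links DNA damage to arrest and cell death through genes such as CDKN1A.

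Stretches of 60 bases are shown for promoters that carried such letters, chosen among the named genes of each group. They come from the RefSeq promoter table (GRCh38.p14) and are written 5′ to 3′ on the strand of the gene, with the matched letters in capitals. The searched letters were GAAANNGAAA for the interferon element, TTTGAA for the mitotic element and TTTGGCGC, TTTCGCGC or TTTCCCGC for the E2F element, on both strands in the 250 bases before a gene's start. Overlapping matches run together in the capitals.
ISG15 (chr1:1013360-1013419, plus strand): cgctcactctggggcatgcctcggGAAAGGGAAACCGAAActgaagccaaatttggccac
IFI6 (chr1:27672256-27672315, minus strand): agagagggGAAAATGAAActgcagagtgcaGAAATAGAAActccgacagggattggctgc
IFI44 (chr1:78649729-78649788, plus strand): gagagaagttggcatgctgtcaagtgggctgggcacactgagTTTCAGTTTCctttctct
ISG20 (chr15:88638917-88638976, plus strand): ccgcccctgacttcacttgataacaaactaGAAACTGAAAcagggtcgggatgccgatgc
CDK1 (chr10:60778140-60778199, plus strand): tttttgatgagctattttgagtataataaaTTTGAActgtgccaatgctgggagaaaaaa
CCNB2 (chr15:59105086-59105145, plus strand): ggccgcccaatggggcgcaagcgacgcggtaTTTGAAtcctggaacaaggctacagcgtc
MCM6 (chr2:135876500-135876559, minus strand): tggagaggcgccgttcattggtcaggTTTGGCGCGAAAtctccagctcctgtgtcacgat

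The interferon letters stood in 26 of 38 interferon-stimulated genes with a listed promoter (68.4%), and in 13 of the 18 such genes that were at least 2-fold higher in [B] cells (72.2%), against 1014 of 27305 genes in the table (3.71%). The mitotic letters stood in 28 of 68 genes of mitosis, spindle and cytokinesis (41.2%) and in 4383 of 27305 genes (16.1%). The E2F letters stood in 17 of 44 replication genes (38.6%) and in 777 of 27305 genes (2.85%). Among the 9393 genes with a promoter that passed the filter on low values, given below, the shares were 3.07% for the interferon letters, 11.6% for the mitotic letters and 5.1% for the E2F letters. No match lay in the windows of HERC6, CCNB1, BUB1, MCM2, FEN1 and CHAF1B, which says only that these letters are not there. A match is a description of the sequence and not a measured binding site.

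Across the genome, 12647 of 43386 entries passed a filter on low values, a mean log2(CPM + 1) of at least 1 over the 15 cells. Of these, 1535 (12.1%) were at least 2-fold higher by medians in [B] cells and 2093 (16.5%) at least 2-fold lower. Every [B] cell lay above every [N] cell in 33 entries (0.261%), and every [B] cell lay below every [N] cell in 258 (2.04%). Without [B] cells 6 and 7 the counts were 1425 higher, 2516 lower, 44 above and 360 below. Without [B] cell 3 they were 1870, 1853, 144 and 346, so that the number above every [N] cell was larger when this 1 cell was left out. The median log2 difference over all these entries was -0.11. It moved to -0.04 with TMM scaling, 0.07 with DESeq2 size factors and 0.04 when mitochondrial entries and the 50 highest genes were left out of the total. The share of higher genes among those past 2-fold was 42.3%, and 49.4%, 58.6% and 56.1% under these scalings, so which direction held more genes depended on the scaling. Gene groups are read below against that shift and against the shares of 12.1% higher and 16.5% lower. A count of members near these shares is not a result about a list.

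**Figure D2:**
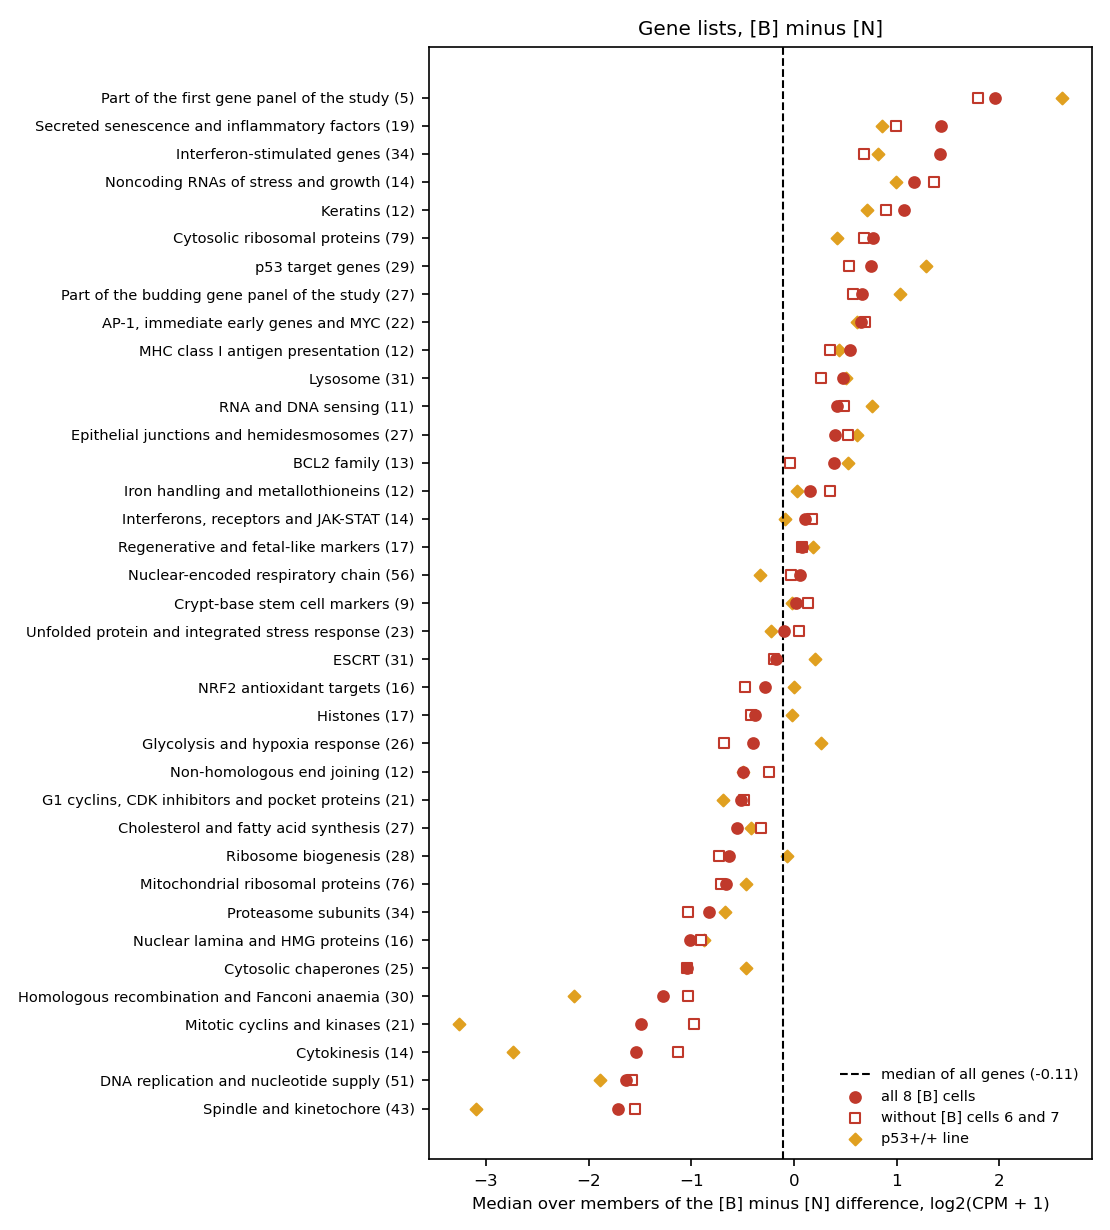
Median log2 difference, [B] minus [N], over the members of each gene list past the filter (their number in brackets), from all 8 [B] cells, without [B] cells 6 and 7, and in the p53+/+ line, beside the median of all genes (dashed line at -0.11). With all 8 [B] cells, spindle, replication, cytokinesis and mitosis lists lay lowest, at -1.71, -1.64, -1.54 and -1.49, and secreted factors and interferon-stimulated genes lay highest after 5 genes of the study's first panel, at 1.43 and 1.42 (0.99 and 0.68 without [B] cells 6 and 7).

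Genes of mitosis were lower in budding cells than in unirradiated cells. Of 21 mitotic cyclins, kinases and their regulators, 13 were at least 2-fold lower, 0 were 2-fold higher, and the median log2 difference was -1.49. In 5 of them every [B] cell lay below every [N] cell. Without [B] cells 6 and 7, 10 of 21 were 2-fold lower, with a median of -0.97.

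CCNB1, the cyclin B1 that drives entry into mitosis, had 11.1 to 183 CPM with a median of 101.4 in [B] cells, against 587 to 1393 CPM with a median of 807 in [N] cells. All [B] cells lay below all [N] cells, and the log2 difference was -3.02 with and without [B] cells 6 and 7. Summed over the cells of a stage, it took 94.4 CPM in [B] cells (95% Poisson interval 93.3 to 95.5) and 900.3 CPM in [N] cells (896 to 904). These intervals cover counting error only, since amplified reads without molecular identifiers are not independent molecules. CDK1, the kinase partner of cyclin B, had 0 to 309 CPM with a median of 97.3 in [B] cells, against 487 to 632 CPM with a median of 561 in [N] cells. It had no count in [B] cell 6, and no [B] cell reached the lowest [N] cell. CCNB2, another B-type cyclin, had a median of 45.4 CPM in [B] cells, against 238 CPM in [N] cells, and AURKA, a kinase of spindle poles, had a median of 31.2 CPM in [B] cells, against 218 CPM in [N] cells. Both had 7 of 8 [B] cells below every [N] cell.

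Spindle and kinetochore genes followed the same direction. Of 43 genes, 38 were at least 2-fold lower (34 without [B] cells 6 and 7) and 0 were higher, with a median log2 difference of -1.71. BUB1, a checkpoint kinase at kinetochores, had 2.49 to 139 CPM with a median of 23 in [B] cells, against 88.7 to 288 CPM with a median of 196 in [N] cells. Its partner BUB1B had a median of 13.8 CPM in [B] cells, against 103.7 CPM in [N] cells. The Ndc80 complex subunit SPC25 had a median of 7.95 CPM in [B] cells, against 59.5 CPM in [N] cells, and the minus-end motor KIFC1, which gathers extra centrosomes, had a median of 2.2 CPM in [B] cells, against 21.7 CPM in [N] cells. In these 4 genes 6 or 7 of the 8 [B] cells lay below every [N] cell.

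Averaged over their members, both lists separated the stages cell by cell. The level of a list in a cell, the mean log2(CPM + 1) over its members past the filter, was 2.23 to 6.64 in [B] cells (median 5.7), against 6.96 to 7.39 in [N] cells (median 7.18) for mitotic genes and 2.05 to 6.0 in [B] cells (median 5.0), against 6.44 to 7.06 in [N] cells (median 6.79) for spindle genes. [B] cell 6 held the lowest level of both lists, and the other [B] cells still lay below every [N] cell.

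Of 14 cytokinesis genes past the filter, 9 were at least 2-fold lower (7 without [B] cells 6 and 7) and 1 was higher. KIF20A and KIF23, kinesins of the central spindle, had medians of 11.1 CPM in [B] and 81.5 CPM in [N] for KIF20A and medians of 42 CPM in [B] and 154 CPM in [N] for KIF23. RACGAP1, their partner in the centralspindlin pathway, had a median of 26.4 CPM in [B] cells, against 158 CPM in [N] cells, and ANLN, a scaffold of the contractile ring, had a median of 68.9 CPM in [B] cells, against 221 CPM in [N] cells. The member that was higher was MYH9, a heavy chain of nonmuscle myosin, with 68.5 to 386 CPM with a median of 141.7 in [B] cells, against 28.4 to 117.6 CPM with a median of 60.8 in [N] cells. Its log2 difference was 1.2, and 5 of 8 [B] cells lay above every [N] cell.

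DNA replication genes were lower over nearly the whole list. Of 51 genes of origin licensing, fork and nucleotide supply, 44 were at least 2-fold lower (39 without [B] cells 6 and 7), 0 were higher, and in 14 every [B] cell lay below every [N] cell. MCM6, a subunit of the replicative helicase, had 5.78 to 94 CPM with a median of 30 in [B] cells, against 111.9 to 292 CPM with a median of 207 in [N] cells. MCM2, another subunit, had 6.11 to 77 CPM with a median of 25.2 in [B] cells, against 84.8 to 271 CPM with a median of 200.1 in [N] cells. Neither gene overlapped between the stages. FEN1, the nuclease that trims Okazaki fragments, had a median of 62.1 CPM in [B] cells, against 344 CPM in [N] cells, and CHAF1B, a subunit of a histone chaperone at forks, had a median of 14.6 CPM in [B] cells, against 75.5 CPM in [N] cells. The list level was 3.64 to 6.05 in [B] cells (median 5.53), against 6.34 to 7.04 in [N] cells (median 6.96).

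G1 regulators were divided. CCNE2, a cyclin of the entry into S phase, had 0 to 26.4 CPM with a median of 3.03 in [B] cells, against 38.6 to 132 CPM with a median of 58.5 in [N] cells, with no overlap and a log2 difference of -3.89. RBL1 and RBL2, which encode the pocket proteins p107 and p130, had medians of 3.31 CPM in [B] and 24.9 CPM in [N] for RBL1 and medians of 3.49 CPM in [B] and 19 CPM in [N] for RBL2. CDKN2C, an inhibitor of CDK4 and CDK6, had a median of 2.7 CPM in [B] cells, against 13.6 CPM in [N] cells. Its relative CDKN2B, by contrast, had a median of 15.3 CPM in [B] cells, against 3.25 CPM in [N] cells, with 5 of 8 [B] cells above every [N] cell. Over all 21 genes past the filter 2 were higher (3 without [B] cells 6 and 7) and 7 lower.

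Homologous recombination and Fanconi anaemia genes were lower in 20 of 30 (16 of 30 without [B] cells 6 and 7), with a median log2 difference of -1.28. RAD54B, a motor protein of strand exchange, had a median of 6.17 CPM in [B] cells, against 46.4 CPM in [N] cells. BRCA2, a mediator of strand exchange, had a median of 2.38 CPM in [B] cells, against 19.2 CPM in [N] cells, EXO1, a resection nuclease, had medians of 11.7 CPM in [B] and 69.6 CPM in [N], and POLQ, the polymerase of microhomology joining, had medians of 1.19 CPM in [B] and 11.5 CPM in [N]. No [B] cell exceeded the highest [N] cell for these 4 genes. RAD50 did not share that direction, with a median of 75.3 CPM in [B] cells, against 66.5 CPM in [N] cells. Non-homologous end joining genes were 2-fold lower in 2 of 12 (3 of 12 without [B] cells 6 and 7) and higher in 1. The count of lower genes was near the share of 16.5% over all genes. XRCC6 and XRCC4, which encode Ku70 and a ligase cofactor, had log2 differences of -1.33 and -1.27, and the repair polymerase gene POLL had 9.14 to 49.5 CPM with a median of 26.1 in [B] cells, against 7.64 to 13.7 CPM with a median of 9.24 in [N] cells.

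**Figure D3:**
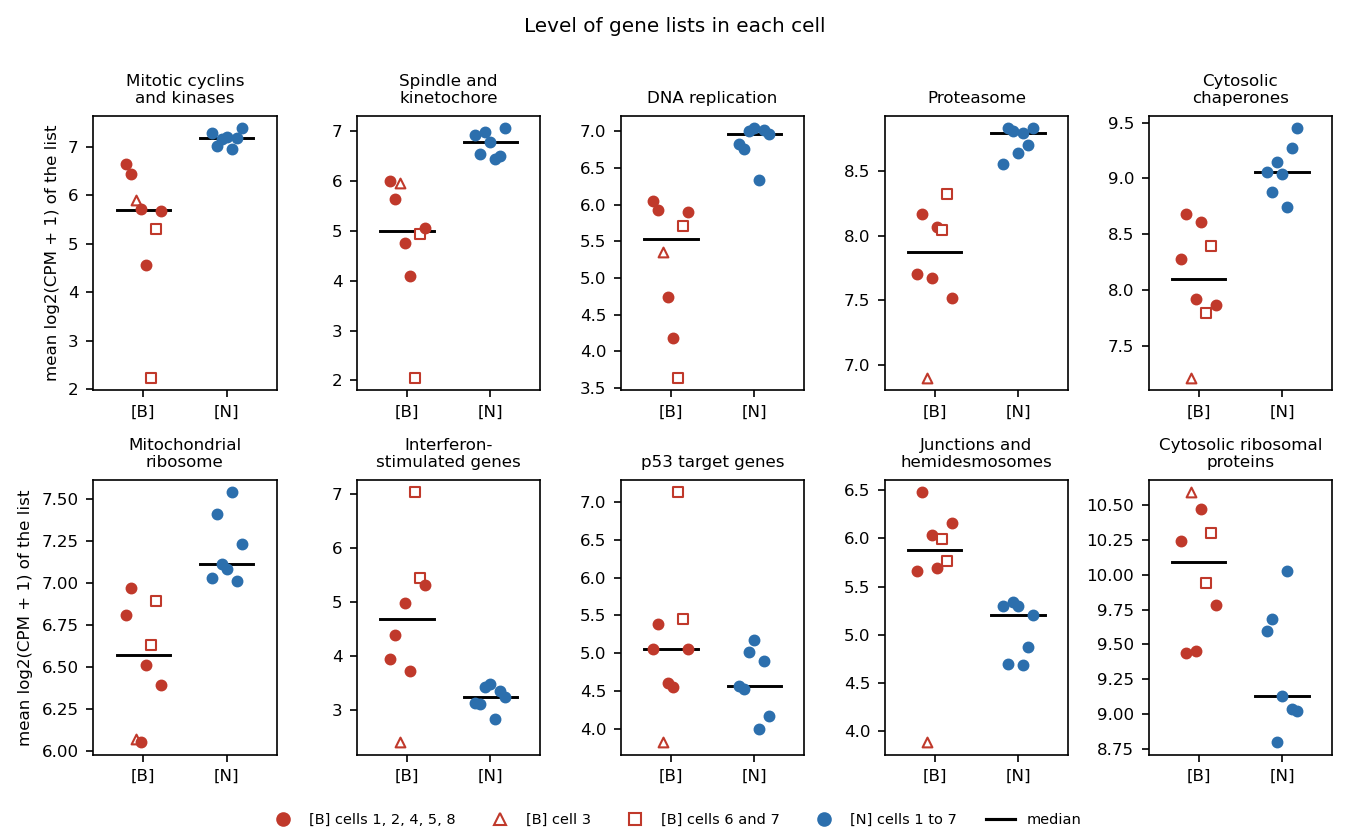
Mean log2(CPM + 1) of gene lists in each [B] cell and each [N] cell (points), with the median of each stage as a bar. All 8 [B] cells lay below all 7 [N] cells for mitosis, spindle and replication, and 7 of 8 lay above for interferon-stimulated genes, with [B] cell 3 at 2.40.

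Chromatin and lamina genes went with the division genes. HMGN2, a nucleosome-binding protein, had 147 to 651 CPM with a median of 381 in [B] cells, against 1235 to 2474 CPM with a median of 1849 in [N] cells, with no overlap. HMGB2, a DNA-bending protein, had a median of 245 CPM in [B] cells, against 866 CPM in [N] cells, the lamina-associated TMPO had a median of 53.2 CPM in [B] cells, against 231 CPM in [N] cells, and LMNB1, which encodes lamin B1, had a median of 2.83 CPM in [B] cells, against 15.9 CPM in [N] cells. Of 16 such genes 8 were at least 2-fold lower and 0 higher. LMNB2 had a log2 difference of 0.46 and the high mobility group gene HMGA1 of 0.12.

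Histone genes were split by type. HIST1H1C, a linker histone gene, was above every [N] cell in all 8 [B] cells, with 16.1 to 149 CPM with a median of 33.2 in [B] cells, against 2.37 to 13.5 CPM with a median of 5.09 in [N] cells. HIST2H2BE had a median of 7 CPM in [B] cells, against 0.236 CPM in [N] cells and HIST1H2BD had a median of 21.1 CPM in [B] cells, against 5.26 CPM in [N] cells. The variant histone gene H2AFV lay below every [N] cell in all 8 [B] cells, with 45 to 179.5 CPM with a median of 109.5 in [B] cells, against 184 to 399 CPM with a median of 244 in [N] cells. H2AFZ and H3F3B, also variant histone genes, had log2 differences of -1.05 and -1.39, and [B] cell 3 was high for both, at 7192 and 4916 CPM. Of 17 histone genes past the filter 5 were higher and 4 lower, and 4 were higher and 6 lower without [B] cells 6 and 7. Copies of histone genes are alike and can share reads.

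The machinery of protein folding and turnover was lower with little overlap between the stages. Of 34 proteasome subunits, 11 were at least 2-fold lower (19 without [B] cells 6 and 7) and in 8 all [B] cells lay below all [N] cells. PSMD14, the deubiquitinase of the lid, had 138 to 396 CPM with a median of 239 in [B] cells, against 443 to 653 CPM with a median of 612 in [N] cells. PSMD10, an assembly factor, had a median of 58.7 CPM in [B] cells, against 173 CPM in [N] cells. The list level was 6.9 to 8.32 in [B] cells (median 7.87), against 8.55 to 8.83 in [N] cells (median 8.79). Of 25 cytosolic chaperones 13 were lower and 0 higher. CCT8, CCT2 and CCT5, subunits of the TRiC chaperonin, had log2 differences of -1.67, -1.29 and -1.29, and STIP1, which joins HSP70 to HSP90, of -1.52. CCT2 had 167 to 609 CPM with a median of 402 in [B] cells, against 792 to 1252 CPM with a median of 983 in [N] cells. No [B] cell reached the lowest [N] cell for this gene.

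Ribosomal proteins of the cytosol and of the mitochondrion stood on opposite sides of the all-gene median. Of 79 cytosolic ribosomal protein genes, 29 were at least 2-fold higher, 0 were lower and 74 had a difference above 0, with a median of 0.77. RPS29 had 476 to 1391 CPM with a median of 745 in [B] cells, against 142.5 to 636 CPM with a median of 188 in [N] cells. RPS12 had a median of 1058 CPM in [B] cells, against 268 CPM in [N] cells, and RPL28 had a median of 717 CPM in [B] cells, against 198 CPM in [N] cells. RPL3, RPL5, RPL6 and RPL7 had log2 differences of -0.21, -0.15, -0.18 and -0.16. Pseudogenes of these genes are many and can take their reads. Of 76 mitochondrial ribosomal protein genes 19 were lower and 1, MRPL33, was higher, with a median of -0.66. MRPL3 had 14 to 279 CPM with a median of 142.5 in [B] cells, against 429.6 to 584 CPM with a median of 546 in [N] cells. Its stages did not overlap. Ribosome biogenesis genes were lower in 7 of 28, among them POLR1B, a subunit of RNA polymerase I, with a median of 21.5 CPM in [B] cells, against 95.2 CPM in [N] cells. GNL3, a nucleolar GTPase, had a median of 104.4 CPM in [B] cells, against 265 CPM in [N] cells.

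Energy metabolism had no single direction. Of 56 nuclear-encoded respiratory chain genes 2 were higher and 10 lower, with a median of 0.06 that was -0.03 without [B] cells 6 and 7. The count of lower genes was near the share of 16.5% over all genes. NDUFB1, an accessory subunit of complex I, had a median of 76.1 CPM in [B] cells, against 26.3 CPM in [N] cells, and SDHD, an anchor of complex II, had a median of 121 CPM in [B] cells, against 389.7 CPM in [N] cells. Of 26 glycolysis and hypoxia genes 1 was higher and 6 lower (9 without [B] cells 6 and 7). LDHB and LDHA, the lactate dehydrogenase chains, had medians of 772 CPM in [B] and 2209 CPM in [N] for LDHB and medians of 1024 CPM in [B] and 2691 CPM in [N] for LDHA, and PGAM1, a glycolytic mutase, had medians of 405 CPM in [B] and 904 CPM in [N]. NDRG1, a gene induced by hypoxia and stress, was the member that was higher, with 26.5 to 966 CPM with a median of 80.9 in [B] cells, against 7.43 to 36.5 CPM with a median of 20.3 in [N] cells. It lay above every [N] cell in 7 of 8 [B] cells.

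Genes of the antiviral pathway were higher in budding cells at several of its steps. Among sensors of RNA and DNA, 4 of 11 genes past the filter were at least 2-fold higher and 0 lower. TMEM173, which encodes the DNA-pathway adaptor STING, had 1.23 to 118.8 CPM with a median of 30.8 in [B] cells, against 0.283 to 11.8 CPM with a median of 2.51 in [N] cells. IFIH1, which encodes the RNA sensor MDA5, had a median of 22 CPM in [B] cells, against 3.7 CPM in [N] cells, and DDX58, which encodes RIG-I, had a median of 43.9 CPM in [B] cells, against 10.5 CPM in [N] cells. DDX58 reached 969.9 CPM in [B] cell 6 and 254.8 CPM in the next highest, [B] cell 4. The highest TMEM173 value was that of [B] cell 7. In 6 of 8 [B] cells TMEM173 and IFIH1 lay above every [N] cell, and in 4 of 8 DDX58 did. The kinase gene TBK1 and its target IRF3 had log2 differences of -0.36 and -0.04.

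Signal transduction genes differed less. Of 14 interferon, receptor and JAK-STAT genes past the filter 3 were higher (2 without [B] cells 6 and 7) and 0 lower, with a median of 0.11. IRF9, a DNA-binding subunit of the interferon-activated transcription complex, had 0.864 to 52.9 CPM with a median of 24.5 in [B] cells, against 1.79 to 10.2 CPM with a median of 6.59 in [N] cells. The transcription factor gene IRF1 had a median of 20.8 CPM in [B] cells, against 9.06 CPM in [N] cells. The kinase gene JAK1 had a median of 59.2 CPM in [B] cells, against 63.6 CPM in [N] cells. IFNGR1, a receptor chain for interferon-gamma, had a median of 32.3 CPM in [B] cells, against 60.6 CPM in [N] cells.

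Of 46 interferon-stimulated genes 34 passed the filter. At least 2-fold higher were 20 and lower were 2, with a median log2 difference of 1.42. Without [B] cells 6 and 7 the counts were 16 and 3 and the median 0.68, and without [B] cell 3 the median was 1.6. The list level was 2.4 to 7.03 in [B] cells (median 4.69), against 2.83 to 3.48 in [N] cells (median 3.23). In 7 of 8 [B] cells it lay above every [N] cell, highest in [B] cell 6, while [B] cell 3 lay below every [N] cell.

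ISG15, the ubiquitin-like modifier whose promoter letters are shown above, had 331 to 20557 CPM with a median of 2043 in [B] cells, against 85.9 to 234 CPM with a median of 157 in [N] cells. Every [B] cell lay above every [N] cell, and the highest values, 20557 and 14644 CPM, were those of [B] cells 6 and 7. The log2 difference was 3.69, and 3.23 without these cells. Summed counts gave 7167 CPM in [B] cells (95% Poisson interval 7157 to 7176) and 163 CPM in [N] cells (162 to 165). The [B] sum was 1583.5 CPM (1578 to 1589) without [B] cells 6 and 7. IFI6, a mitochondrial and endoplasmic reticulum protein with antiviral action, had 43.3 to 499.5 CPM with a median of 137 in [B] cells, against 5.85 to 15.1 CPM with a median of 11.6 in [N] cells. Its log2 difference was 3.45, 3.34 without [B] cells 6 and 7, and the stages did not overlap. The highest IFI6 value was that of [B] cell 7.

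Other members had low levels in unirradiated cells. IFI44, whose product inhibits viral replication, had a count in 7 of 8 [B] cells (87.5%, 95% Clopper-Pearson interval 47.3 to 99.7%) and in 2 of 7 [N] cells (28.6%, 3.67 to 70.96%). Its median was 59.9 CPM in [B] cells, against 0 in [N] cells. The [B] median of IFI44 was 21.9 CPM without [B] cells 6 and 7. The intervals for its shares of cells take the cells of a stage as independent draws and cover no spread between cultures. OASL, an oligoadenylate synthetase-like protein, had 1.53 to 3894 CPM with a median of 148 in [B] cells, against 0 to 16.2 CPM with a median of 3.02 in [N] cells. Its highest value was that of [B] cell 6. HERC6, a ubiquitin ligase gene, had a median of 26.2 CPM in [B] cells, against 0.305 CPM in [N] cells, and ISG20, an exonuclease gene, had a median of 75.2 CPM in [B] cells, against 4.22 CPM in [N] cells. These [B] medians were 102.5 CPM for OASL and 35.7 CPM for ISG20 without [B] cells 6 and 7. For OASL, HERC6 and ISG20, 6, 5 and 7 of 8 [B] cells lay above every [N] cell. OAS1 and OAS3, synthetases of the RNase L activator, had medians of 2.17 CPM in [B] and 0 CPM in [N] for OAS1 and medians of 28.6 CPM in [B] and 14.8 CPM in [N] for OAS3. The log2 difference of OAS1 was 1.47, and 0.71 to 2.24 when 1 cell was left out. Not every member shared the direction. PLSCR1, a membrane scramblase gene, had a median of 17.1 CPM in [B] cells, against 58.3 CPM in [N] cells, and EIF2AK2, which encodes the RNA-dependent kinase PKR, had a median of 28 CPM in [B] cells, against 61 CPM in [N] cells.

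**Figure D4:**
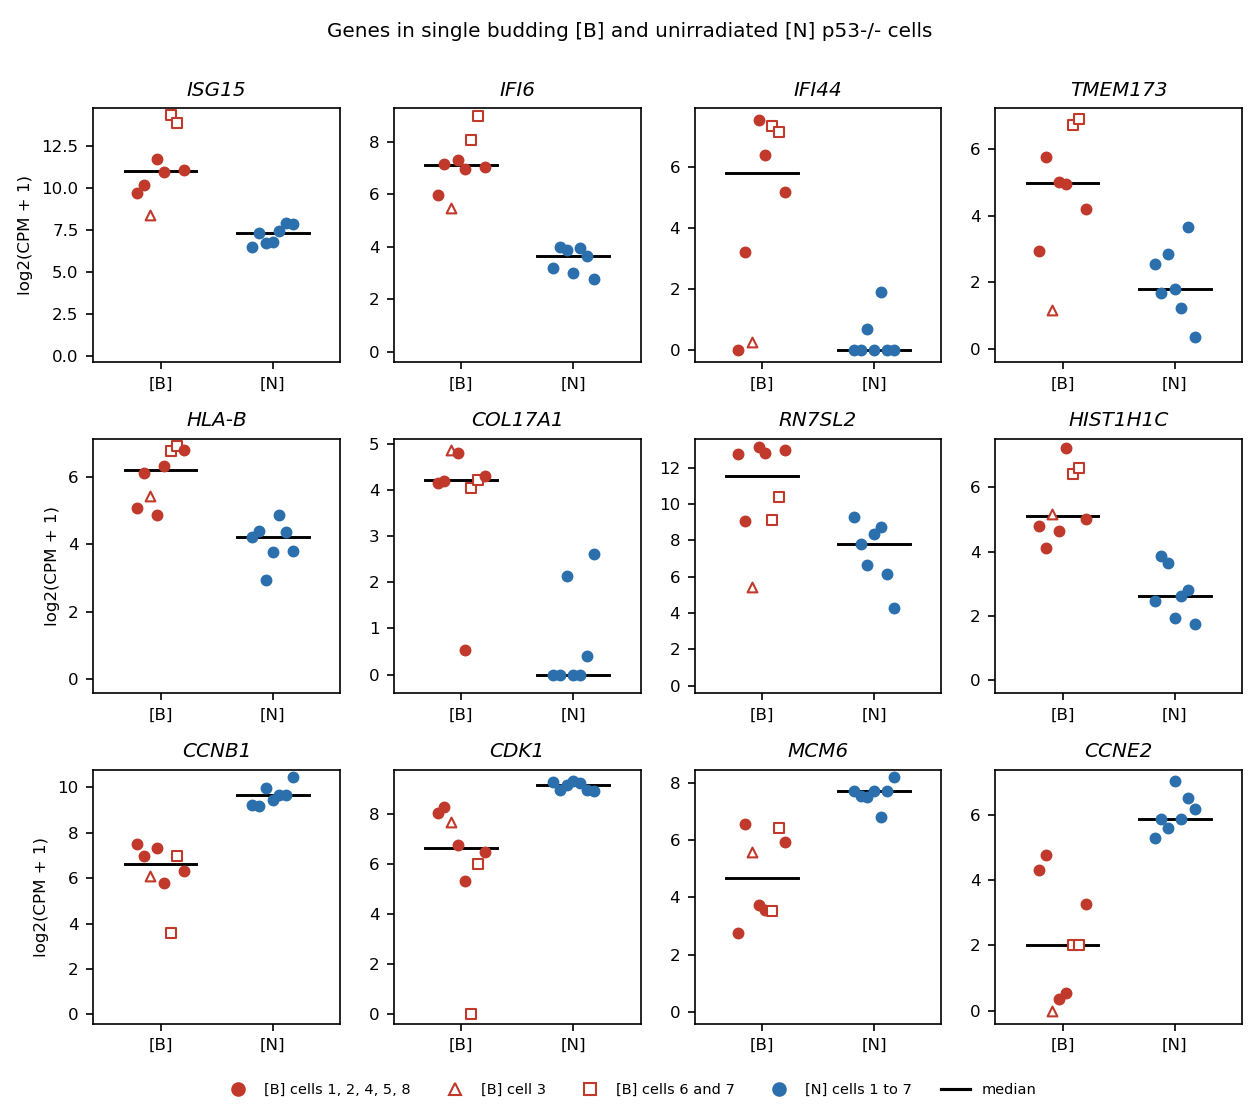
log2(CPM + 1) of single genes in each [B] cell and each [N] cell (points), with the stage medians as bars. ISG15 and IFI6 lay above every [N] cell in all 8 [B] cells, CCNB1 and CDK1 lay below in all 8, and the highest ISG15 values belonged to [B] cells 6 and 7.

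Of 12 genes of MHC class I antigen presentation past the filter 5 were higher and 1 lower. HLA-B and HLA-C encode classical heavy chains. HLA-B lay above every [N] cell in all 8 [B] cells, at 28.4 to 121 CPM with a median of 73.4 in [B] cells, against 6.66 to 28 CPM with a median of 17.6 in [N] cells. HLA-C had a median of 104.3 CPM in [B] cells, against 31.6 CPM in [N] cells, with 7 of 8 [B] cells above every [N] cell. ERAP1, which trims peptides, had a median of 9.76 CPM in [B] cells, against 1.58 CPM in [N] cells. PDIA3, a disulfide isomerase of the loading complex, had a median of 193 CPM in [B] cells, against 449 CPM in [N] cells. These HLA genes are alike, and the table holds further entries under the name HLA-B, so reads may be divided among them.

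Part of the secreted and immediate early genes were also higher by medians. Of 19 senescence and inflammatory factors past the filter 11 were at least 2-fold higher and 0 lower, and 9 were higher without [B] cells 6 and 7. GDF15, a stress cytokine and p53 target, had 9.63 to 281 CPM with a median of 143 in [B] cells, against 11.6 to 85 CPM with a median of 17.2 in [N] cells. It lay above every [N] cell in 4 of 8 [B] cells. Its log2 difference was 2.81, 1.6 without [B] cells 6 and 7, and -0.33 without [B] cells 3, 6 and 7, where the sign turned. PLAT, the tissue plasminogen activator, had a median of 8.99 CPM in [B] cells, against 0.849 CPM in [N] cells. HBEGF, a growth factor of the EGF receptor, had a median of 67.6 CPM in [B] cells, against 14.9 CPM in [N] cells, and LIF, a cytokine of the IL-6 family, had a median of 15.3 CPM in [B] cells, against 3.04 CPM in [N] cells. For HBEGF 0 of 8 [B] cells exceeded the highest [N] cell.

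Of 22 AP-1, immediate early and MYC genes 9 were higher and 2 lower, and without [B] cells 6 and 7 the counts were 5 and 1. JUN, a component of AP-1, had 15.1 to 97.3 CPM with a median of 33.8 in [B] cells, against 1.04 to 36.6 CPM with a median of 2.98 in [N] cells, and its relative JUND had 10 to 163 CPM with a median of 65.7 in [B] cells, against 2.5 to 18.8 CPM with a median of 7.43 in [N] cells. In 6 of 8 [B] cells JUND lay above every [N] cell. FOSL2 had a median of 42.9 CPM in [B] cells, against 14.4 CPM in [N] cells and the immediate early gene IER5 had a median of 67.5 CPM in [B] cells, against 19.9 CPM in [N] cells. Lower were DUSP6, a phosphatase that restrains ERK, with 1.16 to 91 CPM with a median of 22.1 in [B] cells, against 56.1 to 232 CPM with a median of 156 in [N] cells, and the zinc finger gene EGR1, with a median of 12.5 CPM in [B] cells, against 52.1 CPM in [N] cells. The log2 difference of EGR1 was -2.14, and -0.72 without [B] cells 6 and 7. MYC had a median of 97.2 CPM in [B] cells, against 124 CPM in [N] cells.

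Genes that p53 can switch on were higher in part, and their counts changed when the cells that went against their line label were left out. Of 29 p53 target genes past the filter 12 were at least 2-fold higher and 1 lower, with a median of 0.75. Without [B] cells 6 and 7, 7 were higher and 5 lower, with a median of 0.54. The counts over all genes also moved without them, from 1535 to 1425 higher and from 2093 to 2516 lower. CDKN1A, which encodes the cyclin-dependent kinase inhibitor p21, had 36.5 to 2146 CPM with a median of 210.2 in [B] cells, against 26 to 131 CPM with a median of 83.8 in [N] cells. In 7 of 8 [B] cells it lay above every [N] cell, and its log2 difference was 1.31, 1.13 without [B] cells 6 and 7. The highest CDKN1A value was that of [B] cell 6. MDM2, the ubiquitin ligase that acts on p53, had a median of 60.2 CPM in [B] cells, against 35.3 CPM in [N] cells. FUCA1, a lysosomal fucosidase, had a median of 29.1 CPM in [B] cells, against 68.2 CPM in [N] cells.

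The cell death members of that list were read with the BCL2 family, in which 4 of 13 genes were higher and 0 lower, and 2 of 13 without [B] cells 6 and 7. PMAIP1, which encodes the BH3-only protein NOXA, had 42.1 to 2464 CPM with a median of 979 in [B] cells, against 116.3 to 429 CPM with a median of 272 in [N] cells. In 6 of 8 [B] cells it lay above every [N] cell. The highest PMAIP1 value was that of [B] cell 6. BBC3, which encodes PUMA, had a median of 13.1 CPM in [B] cells, against 2.44 CPM in [N] cells, with a log2 difference of 1.94. BAX, a pore-forming effector, had a median of 32.5 CPM in [B] cells, against 11.8 CPM in [N] cells, with a log2 difference of 1.38 that was 0.41 without [B] cells 6 and 7. The survival gene MCL1 had a median of 78.9 CPM in [B] cells, against 109.9 CPM in [N] cells.

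Epithelial attachment genes were higher in most budding cells. Of 27 junction and hemidesmosome genes 11 were at least 2-fold higher and 1 lower, and without [B] cells 6 and 7 the counts were 10 and 1. LAMB3, a chain of laminin-332, had 77.9 to 928 CPM with a median of 297 in [B] cells, against 11.6 to 188 CPM with a median of 30.7 in [N] cells. Its highest value was that of [B] cell 6. LAMA3, another chain, had a median of 30.4 CPM in [B] cells, against 4.35 CPM in [N] cells. COL17A1, a hemidesmosomal collagen, had 0.438 to 28.4 CPM with a median of 17.6 in [B] cells, against 0 to 5.11 CPM with a median of 0 in [N] cells. PLEC, which encodes the cytolinker plectin, had a median of 569 CPM in [B] cells, against 102.4 CPM in [N] cells. DSC2, a desmosomal cadherin, lay above every [N] cell in all 8 [B] cells, with 38.2 to 144 CPM with a median of 66.2 in [B] cells, against 8.62 to 36.6 CPM with a median of 14 in [N] cells. The member that was lower was CTNNB1, which encodes beta-catenin, with a median of 163 CPM in [B] cells, against 535 CPM in [N] cells. The list level was 3.88 to 6.48 in [B] cells (median 5.88), against 4.68 to 5.34 in [N] cells (median 5.2), and 7 of 8 [B] cells lay above every [N] cell.

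Keratins did not share a direction. Of 12 keratins past the filter 7 were higher (5 without [B] cells 6 and 7) and 2 lower. KRT8 and KRT18, the pair of simple epithelia, were the lower ones, with medians of 1159 CPM in [B] and 3145 CPM in [N] for KRT8 and medians of 1269 CPM in [B] and 2775 CPM in [N] for KRT18. Summed over cells in place of medians, KRT18 had a difference of 0.37, and [B] cell 6 reached 9576 CPM. KRT7 had a median of 36.2 CPM in [B] cells, against 9.94 CPM in [N] cells, KRT81 had a median of 51.2 CPM in [B] cells, against 22.8 CPM in [N] cells but a difference of -0.19 by means over cells, and KRT6A had 0 to 507 CPM with a median of 6.17 in [B] cells, against 0 to 5.03 CPM with a median of 0 in [N] cells. The log2 difference of KRT6A was 2.07, and 0.45 to 3.7 when 1 cell was left out. The highest KRT6A value was that of [B] cell 7. The tight junction gene CLDN4 had a median of 254 CPM in [B] cells, against 83.9 CPM in [N] cells, with 7 of 8 [B] cells above every [N] cell, and the adhesion gene EPCAM had a median of 393 CPM in [B] cells, against 766 CPM in [N] cells.

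Of 17 regenerative and fetal-like markers 5 were higher and 3 lower. S100A6, a calcium-binding protein, had 911 to 8693 CPM with a median of 2649.9 in [B] cells, against 583 to 1404 CPM with a median of 815 in [N] cells. In 7 of 8 [B] cells it lay above every [N] cell. MSLN, which encodes mesothelin, had a median of 43.8 CPM in [B] cells, against 11.8 CPM in [N] cells. ANXA10, an annexin, had 0 to 7.33 CPM with a median of 0 in [B] cells, against 4.19 to 23.3 CPM with a median of 13.6 in [N] cells, and F3, which encodes tissue factor, had a median of 71.4 CPM in [B] cells, against 274 CPM in [N] cells. Of 9 crypt-base stem cell markers 0 were higher (2 without [B] cells 6 and 7) and 1, CDCA7, was lower, with 0 to 38.3 CPM with a median of 12.5 in [B] cells, against 42.1 to 99 CPM with a median of 71.6 in [N] cells. SOX9 had a median of 56.3 CPM in [B] cells, against 55.5 CPM in [N] cells. PROM1, which encodes CD133 and served in the line check above, had a count in 3 of 8 [B] cells and 0 of 7 [N] cells, with 9 and 10.2 CPM in [B] cells 6 and 7. CD44, an adhesion receptor, had a median of 466.03 CPM in [B] cells, against 243 CPM in [N] cells.

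ESCRT proteins cut membrane necks when viruses bud and when daughter cells part. Of 31 ESCRT genes 4 were higher and 1 lower, whereas 2 were higher and 4 lower without [B] cells 6 and 7. The count of higher genes with all [B] cells was near the share of 12.1% over all genes. The list had a median of -0.17 that ranged from -0.06 to 0.15 over the 3 other scalings, so its sign depended on the scaling. CHMP4B, a filament subunit of ESCRT-III, had 3.68 to 49.9 CPM with a median of 13.3 in [B] cells, against 0.317 to 12.3 CPM with a median of 2.53 in [N] cells. CHMP1B had a median of 175 CPM in [B] cells, against 73.3 CPM in [N] cells, with a log2 difference of 1.23 (0.48 without [B] cells 6 and 7). VTA1, a cofactor of the VPS4 ATPase, had a median of 99.5 CPM in [B] cells, against 233 CPM in [N] cells. CHMP2A had a median of 149 CPM in [B] cells, against 138 CPM in [N] cells and VPS28 had a median of 84.3 CPM in [B] cells, against 63.4 CPM in [N] cells, and neither was 2-fold apart. Of 31 lysosomal genes 6 were higher and 3 lower. LAMP1, a lysosomal membrane protein, had 17.4 to 477 CPM with a median of 53.3 in [B] cells, against 3.04 to 25 CPM with a median of 10.2 in [N] cells. Its highest value was that of [B] cell 3. CTSC, a cathepsin gene, had a median of 40.9 CPM in [B] cells, against 84.8 CPM in [N] cells. CD68, the lysosomal gene on the leucocyte marker list, had a median of 31.7 CPM in [B] cells, against 6.33 CPM in [N] cells.

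The study picked 2 gene panels on these cells, so their direction is not independent evidence. Used here were 5 genes of the first panel and 27 of the second, which are not the whole of either. Of the 5 genes 4 were at least 2-fold higher. CST3, which encodes the protease inhibitor cystatin C, had 24.4 to 735 CPM with a median of 476 in [B] cells, against 95.6 to 152 CPM with a median of 113.6 in [N] cells, and 7 of 8 [B] cells lay above every [N] cell, with [B] cell 3 below them all. SELENOM, a selenoprotein gene, had a median of 156 CPM in [B] cells, against 60.6 CPM in [N] cells. RN7SL2, an RNA of the signal recognition particle, had 42.4 to 9025 CPM with a median of 4075 in [B] cells, against 18.5 to 632 CPM with a median of 222 in [N] cells. No [B] cell lay near the [B] median, since [B] cells 1, 4, 5 and 8 had 6835 to 9025 CPM and the other 4 had 42.4 to 1314 CPM. Its log2 difference was 3.75, and leaving out 1 cell moved it to between 2.56 and 4.94. The [B] median was 7043 CPM when [B] cells 6 and 7 were left out. RN7SL2 is nearly identical to RN7SL1, which had a median of 3674 CPM in [B] cells, against 237 CPM in [N] cells, and reads of the pair cannot be told apart with certainty. Of the 27 genes 6 were higher (4 without [B] cells 6 and 7) and 0 lower. IGFBP6, a binding protein of insulin-like growth factors, had 145 to 5680.5 CPM with a median of 1168 in [B] cells, against 127 to 336 CPM with a median of 292 in [N] cells. Its highest value was that of [B] cell 7. SNCG, which encodes gamma-synuclein, had a median of 22.6 CPM in [B] cells, against 6.42 CPM in [N] cells, and ISYNA1, an enzyme of inositol synthesis, had a median of 75 CPM in [B] cells, against 80.7 CPM in [N] cells.

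Among 14 noncoding RNAs of stress and growth 10 were higher and 0 lower, and the list level was 5.59 to 8.0 in [B] cells (median 6.85), against 4.83 to 6.16 in [N] cells (median 5.32). ZFAS1, a host gene of small nucleolar RNAs, lay above every [N] cell in all 8 [B] cells, with 261 to 1523 CPM with a median of 501 in [B] cells, against 56.5 to 221 CPM with a median of 101.2 in [N] cells. GAS5, another host gene, had a median of 573 CPM in [B] cells, against 148 CPM in [N] cells. Mitochondrial RNA shares, given above, were also higher in several [B] cells.

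Stress and nutrient genes had mixed directions. Some counts in these lists were near the shares over all genes, 12.1% higher and 16.5% lower. Of 23 genes of the unfolded protein and integrated stress response 4 were higher and 3 lower, among them CHAC1, a glutathione-degrading enzyme, with a median of 16.3 CPM in [B] cells, against 3.68 CPM in [N] cells, and PSAT1, an enzyme of serine synthesis, with a median of 103.03 CPM in [B] cells, against 307 CPM in [N] cells. Of 27 genes of cholesterol and fatty acid synthesis 1 was higher and 6 lower, with medians of 62.8 CPM in [B] and 247 CPM in [N] for IDI1, an isomerase of the sterol pathway, and medians of 25.2 CPM in [B] and 10.1 CPM in [N] for SREBF1, a regulator of lipid synthesis. Of 16 NRF2 target genes 2 were higher and 1 lower, and 1 was higher and 2 lower without [B] cells 6 and 7. NQO1, a quinone reductase, had a median of 508 CPM in [B] cells, against 1015 CPM in [N] cells, and HMOX1, the inducible haem oxygenase, had a median of 67.6 CPM in [B] cells, against 29.4 CPM in [N] cells. Of 12 genes of iron handling and metallothioneins 3 were higher and 1 lower. MT2A, a metallothionein, had a median of 2295 CPM in [B] cells, against 754 CPM in [N] cells, and TFRC, the transferrin receptor, had a median of 165 CPM in [B] cells, against 343 CPM in [N] cells.

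Genes outside the lists also separated the stages. The 15 with the largest log2 differences among those above every [N] cell included CLIC3, which encodes a chloride intracellular channel protein, with 10.3 to 66.9 CPM with a median of 30 in [B] cells, against 0.943 to 8.87 CPM with a median of 3.57 in [N] cells. RAB11FIP5, an effector of recycling endosomes, had a median of 35.1 CPM in [B] cells, against 4.81 CPM in [N] cells, GM2A, the activator of ganglioside breakdown, had a median of 35.8 CPM in [B] cells, against 7.49 CPM in [N] cells, and IFI27L2 had a median of 64.8 CPM in [B] cells, against 12.5 CPM in [N] cells. POLD4, the smallest subunit of DNA polymerase delta, had a median of 78 CPM in [B] cells, against 15.3 CPM in [N] cells, unlike the replication list as a whole. The others were ADGRE5, PRSS3, RSPH3 and WBP1L beside genes already described, with log2 differences of 1.51 to 1.85. Among the 15 with the largest differences below every [N] cell, DEPDC1B had 0.499 to 34.2 CPM with a median of 6.29 in [B] cells, against 69.7 to 125 CPM with a median of 92.4 in [N] cells. DLEU2, a noncoding gene, had a log2 difference of -3.42, ESCO2, the acetyltransferase of cohesin, had a median of 7.33 CPM in [B] cells, against 81 CPM in [N] cells, and PBK, a mitotic kinase, had a median of 72.1 CPM in [B] cells, against 513 CPM in [N] cells. TM4SF18, SLC16A14, IFT81, DDIAS, PIR and GPN3 had log2 differences of -3.59 to -2.64.

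For division genes the medians of pre-budding cells of the same line stood between those of both stages, while single cells overlapped with both. The median level of the mitotic list was 7.18 in [N] cells at day 0, 6.65 in the 11 [P] cells at day 7 and 5.7 in [B] cells at day 10. For replication these levels were 6.96, 6.22 and 5.53, and for proteasome subunits 8.79, 8.0 and 7.87. Single [P] cells ranged from 4.9 to 7.11 for mitosis, 4.53 to 7.05 for replication and 7.34 to 8.77 for the proteasome. Interferon-stimulated genes had 3.23, 4.43 and 4.69, but the [B] median was 4.16 without [B] cells 6 and 7, below that of [P] cells. The [B] medians of the other lists were 5.81 for mitosis, 5.62 for replication and 7.68 for the proteasome without these cells. ISG15 had medians of 157, 1215 and 2043 CPM, CCNB1 of 807, 208 and 101.4 CPM, and RN7SL2 of 222, 240.4 and 4075 CPM. No order between stages was tested.

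The same comparison in the p53+/+ line, 28 [B] cells against 6 [N] cells, gives values to set beside these, with no test of the lines against each other. The list members counted in both lines are those past the filter set on the 15 cells labelled p53-/-. Members that would pass only in p53+/+ cells are left out. The median log2 difference of the mitotic list was -1.49 in the line labelled p53-/-, or -0.97 without [B] cells 6 and 7, against -3.26 in the p53+/+ line. CDKN1A had log2 differences of 1.31 in the line labelled p53-/- and 4.45 in the p53+/+ line. Of the p53 targets 12 were higher in the line labelled p53-/- (7 without [B] cells 6 and 7) and 18 in the p53+/+ line, each of 29. Interferon-stimulated genes were higher in 20 of 34 with a median of 1.42 in the line labelled p53-/-, against 15 of 34 with a median of 0.82 in the p53+/+ line. Without [B] cells 6 and 7 they were higher in 16 of 34 with a median of 0.68, below that of the p53+/+ line, so the order of the medians turned. DUSP6 and KRT8 had opposite signs, with -2.79 and -1.44 in the line labelled p53-/- and 1.22 and 1.52 in the p53+/+ line, and so did DSC2, with 2.16 in the line labelled p53-/- and -0.74 in the p53+/+ line. Cytosolic ribosomal protein genes were higher in 29 of 79 in the line labelled p53-/- and in 8 of 79 in the p53+/+ line.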

How the data were processed

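Single cells of HCT116 were sequenced after full-length amplification. Per the submitters' processing notes, fastp, HISAT2 2.0, RSEM, Bowtie2 and DESeq2 were used with the builds GRCh38 and mm10, and which tool made the count table is not given in the sources used here, nor whether strand was used. The authors deposited raw counts per gene and cell, whole numbers without normalization and without molecular identifiers, in 43386 entries, of which 3837 carry an added ending and were kept apart. The labels name one model of sequencer and the methods another, and this was not resolved. Columns of the authors' own comparisons were not used.

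Counts were divided by the cell's total and expressed as CPM, with a pseudocount of 1 CPM on the log2 scale. Since each stage is 1 sample, no test was made. A gene was counted as higher or lower at a 2-fold difference of medians, among entries with a mean log2(CPM + 1) of at least 1. Intervals of 95% are exact Poisson intervals for summed counts, which cover counting error only, and Clopper-Pearson intervals for shares of cells. The latter take the cells of 1 sample as independent draws and cover no spread between cultures. With no count in a cell, up to 3 counts are allowed by the depth.

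Members and the 44 gene lists were chosen with earlier results of these data known. Named are up to 15 genes with the largest difference in each direction whose stages do not overlap, with a median of at least 20 CPM in the higher stage, up to 4 members of a list in each direction with at least 5 CPM, and genes the study names. A few genes picked by these rules are left out of the text. Of the list of mitochondrial messenger RNAs 0 of 13 members and of cytokinesis 14 of 17 were in the table. None of 6 endothelial markers had a median of 1 CPM or more in either stage, and of 6 erythroid markers 1 did in [B] cells and 0 in [N] cells.

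Alternatives were TMM (edgeR 4.0.16) and DESeq2 1.42.0 size factors, a total without mitochondrial entries and the 50 highest genes, other filters and pseudocounts, means or sums over cells, cells thinned to the lowest total, title subsets and each cell left out. Leaving out [B] cells 6 and 7, [B] cell 3, or all of these was chosen after seeing the data. Promoters came from a RefSeq table of 35116 starts of 27305 genes. Python 3.11.15, numpy 2.4.6, pandas 2.3.3, scipy 1.17.1, matplotlib 3.10.9 and R 4.3.3 were used, and the scripts were tested on simulated data.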

Additional observations from a re-analysis of the deposited data

Results flagged for a closer look

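Cells that stood apart from the rest of their stage were sought in 434 groups of values (depth, list levels and named genes, per stage), and 47 values, each of 1 cell, did so. Chance alone would set about 1 in 20 groups apart. [B] cell 3 accounted for many of these. It had a median correlation of 0.608 with its stage and list levels, as mean log2(CPM + 1), of 2.06 for the BCL2 family, 3.68 for AP-1 and immediate early genes, 3.98 for ESCRT, 5.29 for NRF2 targets, 3.88 for junctions, 6.91 and 4.65 for the 5 and 27 genes used of the study's panels, 0.74 for intestinal markers and 0.41 for leucocyte markers, each the lowest of the stage. In single genes, as log2(CPM + 1), it was lowest for CST3 (4.67), VPS28 (2.25), FUCA1 (0.82), HBEGF (0.30), CLDN4 (2.81), CD68 (0.41), POLR1B (1.75), IRF3 (0.38) and FOSL2 (0.38). The same cell was highest for H3F3B (12.26), H2AFZ (12.81), LAMP1 (8.90), MRPL33 (10.38) and NDUFB1 (9.04).

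[B] cell 6, which held 7 of the 8 genes found mainly in the p53+/+ line, had the largest total, 59786305 counts (59.8 in units of 1e+06), and the lowest levels of the mitotic list (2.23) and the cytokinesis list (2.69). Its log2(CPM + 1) was 0.00 for PBK, 0.00 for CDK1, 0.00 for CCNB2 and 3.60 for CCNB1. A count of 0 in this cell allows up to 3 counts.

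Other [B] cells stood apart in single genes. [B] cell 2 was high for GPN3 (6.73) and CCT8 (10.11), [B] cell 4 was high for ADGRE5 (7.77), [B] cell 1 was low for LIF (0.80) and [B] cell 5 was low for COL17A1 (0.52).

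Among [N] cells, cell 5 had the lowest replication list level (6.34) and the highest IFI44 (1.90). [N] cell 6 stood apart for MHC class I genes (5.52), regenerative markers (6.77) and TM4SF18 (3.60). [N] cell 4 had the highest level of AP-1 genes (6.08) and of LIF (5.21), and a low HLA-C (3.30). OAS1 was highest in [N] cell 3 (1.71), CHMP1B was lowest in [N] cell 7 (5.06) and CCT8 was lowest in [N] cell 2 (9.68).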

How the results depend on the processing

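The 1535 genes at least 2-fold higher, 2093 lower, 33 above and 258 below every [N] cell moved by over 1.5 times under some alternatives. With DESeq2 size factors 62 lay above and 157 below, and with the total that left out mitochondrial entries and the 50 highest genes 52 lay above. A filter at a mean of 3 left 782 higher, since fewer genes were tested. A pseudocount of 5 CPM, which shrinks the differences of low genes, left 687 higher and 1359 lower. Summed counts gave 1181 lower. With only the [N] cells of one title prefix (cells 1 to 5) 390 lay below, and with the [B] cells that share a title prefix (5, 6 and 7) averaged 53 lay above. Without [B] cell 3, 144 lay above, and without [B] cells 3, 6 and 7, 202 lay above and 485 below. Leaving out each cell in turn gave 1445 to 1870 higher, 1853 to 2563 lower, 34 to 144 above and 261 to 477 below, with 60 above and 477 below without [B] cell 2, and 51, 50 and 55 above without [B] cell 4, [N] cell 1 and [N] cell 5. Except where the construction shows it, the cause was not tested. Among named genes at least 2-fold apart, a sign turned for KRT81 with means over cells (-0.19), KRT18 with summed counts (0.37) and GDF15 without [B] cells 3, 6 and 7 (-0.33). Signs of smaller differences also turned and were not counted as such. Examples are RPL3 (-0.21, and 0.08 without [B] cell 3) and the BCL2 family list (0.39, and -0.04 without [B] cells 6 and 7). A shift smaller than the standard deviation between [B] cells was counted as kept. By this rule 4944 of the other values of named genes kept and 12 moved, and of the list medians 1184 kept and 5 moved. The [B] cells differed widely, so the rule could miss large shifts and these counts do not show stability. The interferon-stimulated list counted as kept at 0.68 without [B] cells 6 and 7, against 1.42 with all [B] cells. Without [B] cells 6 and 7 the fold differences of 22 of 171 named genes moved by over 1.5 times, among them, with log2 differences in brackets, AURKA (-2.1), CCNB2 (-1.74), CDK1 (-1.92), CDKN2C (-1.5), DDIAS (-2.4), ERAP1 (1.34), HIST1H2BD (1.11), HIST2H2BE (1.79), PLAT (3.0), PLEC (3.05), PSAT1 (-2.32), RBL2 (-2.92), RN7SL1 (4.89) and SLC16A14 (-2.57). Leaving out 1 cell moved 12 named genes that far, and OAS1 (0.71 to 2.24) and KRT6A (0.45 to 3.7) then fell under 2-fold at the low end. No paired analysis was possible because the cells of both stages share no replicate number from the labels. The depth of 15784490 counts or more per cell limited low genes only, while 1 sample per stage limits every comparison.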
